A study of Homo sapiens with 36 samples.

Results

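The 9 genes described here encode enzymes that build purine and pyrimidine nucleotides from small precursors, or that use folate to finish the thymine base. They were chosen by name: PPAT, PAICS, GART and IMPDH2 of purine synthesis, CAD, DHODH, UMPS and CTPS1 of pyrimidine synthesis, and TYMS of thymidylate synthesis. All 9 were found among the 59041 genes to which the deposited transcripts could be summed, and all 9 passed the filter on low counts in every cell line. RNA was sequenced from HL60, MOLM13 and OCIAML3, established human lines of acute myeloid leukemia labelled as wild type, after 24 h with the solvent DMSO, with cytarabine at 0.1 µM, with daunorubicin at 0.02 µM, or with a combination of the drugs at the same concentrations. Cytarabine, a cytidine analog, stops DNA synthesis once the cell has phosphorylated it, and daunorubicin, an anthracycline, traps topoisomerase II on the DNA. The 12 groups held 3 libraries each, labelled as biological replicates, which gives 36 libraries. HL60 and MOLM13 were grown in RPMI with 10% serum and OCIAML3 in alpha-MEM with 20% serum, so the cell line and its medium cannot be told apart in a comparison of untreated levels. Each line stems from a single donor, and each drug was given at 1 dose and 1 time.

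A cell makes purines by building the ring stepwise on phosphoribosyl pyrophosphate, up to inosine monophosphate, from which adenine and guanine nucleotides branch. It makes pyrimidines by closing the ring first and attaching the sugar afterwards, up to uridine monophosphate, from which cytidine nucleotides follow. Folate carries the single carbons for the purine ring and for the methyl group of thymidylate, and dividing leukemia cells draw on all of these routes to copy their DNA and to make RNA.

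The libraries held 25067734 to 47322144 estimated counts, with a median of 32194478. Levels are given as counts per 1000000 counts of a library (CPM), scaled by the trimmed mean of M values (TMM) over all 36 libraries, with replicates 1, 2 and 3 in this order. A difference is a log2 fold change ± standard error from the quasi-likelihood test of edgeR, fitted on the 12 libraries of a cell line, and a gene passed at a Benjamini-Hochberg false discovery rate (FDR) under 0.05 over all genes tested in that line. In OCIAML3, the library labelled as replicate 3 of cytarabine and the one labelled as replicate 3 of the combination stood apart from the rest of their groups. On a score over 701 genes that passed and changed more than 2-fold after daunorubicin in OCIAML3 without these libraries, which is 0 at the DMSO mean and 1 at the daunorubicin mean, the first scored 0.542 against 0.129 and 0.0896 for replicates 1 and 2, and the second scored -0.00916 against 1.26 and 1.03. Replicate 3 of daunorubicin scored 0.646 against 1.31 and 1.05 for replicates 1 and 2, and it was kept. The libraries set apart were thus not the only ones to deviate. Whether the cytarabine and combination libraries labelled as replicate 3 carry the right labels was not tested, and the labels were kept. With all libraries no gene passed in OCIAML3 after any treatment, so the OCIAML3 counts and the values of the genes named are given with and without these 2 libraries. The myeloid markers, of which 5 of 6 exceeded 1 CPM in HL60 and 6 of 6 in the other lines, summed to at least 1060 CPM in every library, whereas the 5 T cell and the 5 erythroid markers were each under 1 CPM on average in every line. Of the B cell markers 4 of 5, and of the T cell markers 2 of 5, passed the filter in HL60 and rose after each treatment, at summed levels of 3.42 to 15.9 CPM and 0.067 to 2.09 CPM over the HL60 libraries. In MOLM13 1 of 3 B cell markers tested rose after cytarabine, and the 1 T cell marker tested rose with cytarabine and with daunorubicin. Of the myeloid markers tested, 3 of 5 fell and 1 rose in HL60 after cytarabine and after the combination, and in MOLM13 2 of 6 fell with cytarabine, and 1 fell and 3 rose with daunorubicin and with the combination. Of 5 epithelial markers, KRT8 and KRT18 exceeded 1 CPM in MOLM13, where the list summed to 9.32 to 13.7 CPM, and none did in the other lines, and 1 of 2 tested rose in MOLM13 after daunorubicin and after the combination. The part of these markers in the results was not tested. In bulk RNA, fewer cells that express a gene and less of its RNA per cell cannot be told apart.

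PPAT and PAICS are shown by sequence first, because they lie head to head. On GRCh38, PPAT occupies chr4:56393362-56435615 on the minus strand and PAICS chr4:56435741-56464578 on the plus strand, so that their annotated starts lie 126 bases apart in GENCODE release 44. The 136 bases between the RefSeq starts of both genes (GRCh38.p14, chr4:56435616-56435751, plus strand) held none of the motifs searched. A CACGTG, the E-box letters that MYC and related factors can bind, stood 40 bases past the PAICS start in its first exon, at chr4:56435792-56435797, and is shown in capitals with 12 bases on each side.
PPAT to PAICS: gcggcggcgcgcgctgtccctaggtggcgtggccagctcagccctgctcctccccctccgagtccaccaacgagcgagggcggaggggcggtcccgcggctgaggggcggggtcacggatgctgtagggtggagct
PAICS exon 1: ctgtatttgctgCACGTGgaaatctccgtt

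DHODH (chr16:72008588-72027664, plus strand) fell furthest of the 9 genes in HL60, and TYMS (chr18:657653-673578, plus strand) behaved differently from the others in that line. Their 250 bases upstream of the RefSeq start (GRCh38.p14, plus strand) are therefore shown, DHODH at chr16:72008494-72008743 with CACGTG and CCAAT in capitals, and TYMS at chr18:657403-657652 with GCGGGAAA in capitals, which is the reverse complement of TTTCCCGC, a form of the E2F motif.
DHODH upstream: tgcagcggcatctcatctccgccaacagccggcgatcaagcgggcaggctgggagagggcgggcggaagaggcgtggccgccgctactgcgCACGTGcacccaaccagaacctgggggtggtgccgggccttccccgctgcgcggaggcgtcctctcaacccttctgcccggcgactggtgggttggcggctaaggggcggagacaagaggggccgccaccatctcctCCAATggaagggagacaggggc
TYMS upstream: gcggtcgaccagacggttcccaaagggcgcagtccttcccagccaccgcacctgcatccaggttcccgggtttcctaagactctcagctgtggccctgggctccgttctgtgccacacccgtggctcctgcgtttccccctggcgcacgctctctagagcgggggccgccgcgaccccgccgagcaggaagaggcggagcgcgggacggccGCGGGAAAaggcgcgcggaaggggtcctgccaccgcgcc

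Motifs were searched on both strands in the RefSeq windows from 250 bases before to 50 bases after each start, which were at hand for 8 of the 9 genes, all but IMPDH2. CACGTG was found for PPAT, PAICS and DHODH, where PPAT and PAICS share a single copy, and it stood in 8.77% of the 27305 genes with a window. TTTCCCGC, TTTCGCGC, TTTGCCGC or TTTGGCGC was found for GART and TYMS and stood in 3.99% of genes. For GART it stood only in the window of the start at chr21:33542117, not in those of the starts at 33542892 and 33542889. CCAAT was found for CAD, DHODH and GART and stood in 39.7% of genes. CCGGAAGT, an ETS motif, was found for GART, again only in the window of the start at chr21:33542117, and stood in 4.95% of genes. 

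The level of the 9 genes in DMSO was first compared per unit of length, as the deposited TPM, a count scaled by transcript length (mean ± SD, n = 3). TYMS stood highest in HL60 at 485 ± 9.84 TPM, followed by IMPDH2 at 308 ± 22.7 TPM and PAICS at 260.5 ± 6.93 TPM. GART at 112 ± 9.10 TPM, CTPS1 at 68.6 ± 3.55 TPM, CAD at 67.2 ± 14.0 TPM, UMPS at 43.1 ± 0.617 TPM and PPAT at 40.4 ± 3.42 TPM came next, and DHODH, which sits in the inner mitochondrial membrane, was lowest at 17.9 ± 2.24 TPM. CTPS1 and CAD overlapped between libraries, as did UMPS and PPAT, so the order within these pairs was not resolved. MOLM13 and OCIAML3 showed the same order except that IMPDH2 came before TYMS, at 320.2 ± 20.8 against 287 ± 18.7 TPM in MOLM13, where the libraries overlapped, and at 450.4 ± 5.35 against 276 ± 23.8 TPM in OCIAML3, where they did not. DHODH was again lowest, at 19.1 ± 4.31 TPM in MOLM13 and 20.5 ± 1.02 TPM in OCIAML3.

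The untreated levels were compared between the lines. In the fit over all 36 libraries, 6 of 9 genes were lower in OCIAML3 than in HL60, where 28.1% of all tested genes were lower, and none was higher. TYMS differed by -1.16 ± 0.39 (FDR = 0.0108) and PAICS by -1.01 ± 0.20 (FDR = 7.2e-05), and PPAT, GART, CAD and UMPS were lower by 0.41 to 0.77. MOLM13 was below HL60 for PPAT and PAICS only, 2 of 9 genes against 22.7% of all genes, and OCIAML3 was below MOLM13 for PAICS, GART and UMPS, 3 of 9 genes against 28.1%. Both counts lay near the share over all genes. With the length offset neither PPAT nor PAICS passed between MOLM13 and HL60 (-0.42 and -0.43, FDR = 0.0502 and 0.0623), and between OCIAML3 and MOLM13 PAICS and GART no longer passed with DESeq2 (-0.42 and -0.25, FDR = 0.0679 and 0.07) or RLE scaling (-0.42 and -0.25, FDR = 0.0757 and 0.0715), nor GART with no filter (FDR = 0.069) or the length offset (FDR = 0.0801). Without the 2 OCIAML3 libraries DHODH also passed between OCIAML3 and HL60, CAD between MOLM13 and HL60 (3 of 9 against 22.8%) and PPAT between OCIAML3 and MOLM13 (4 of 9 against 28.3%). No untreated difference of IMPDH2 or CTPS1 passed between any pair of lines.

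**Figure D1:**
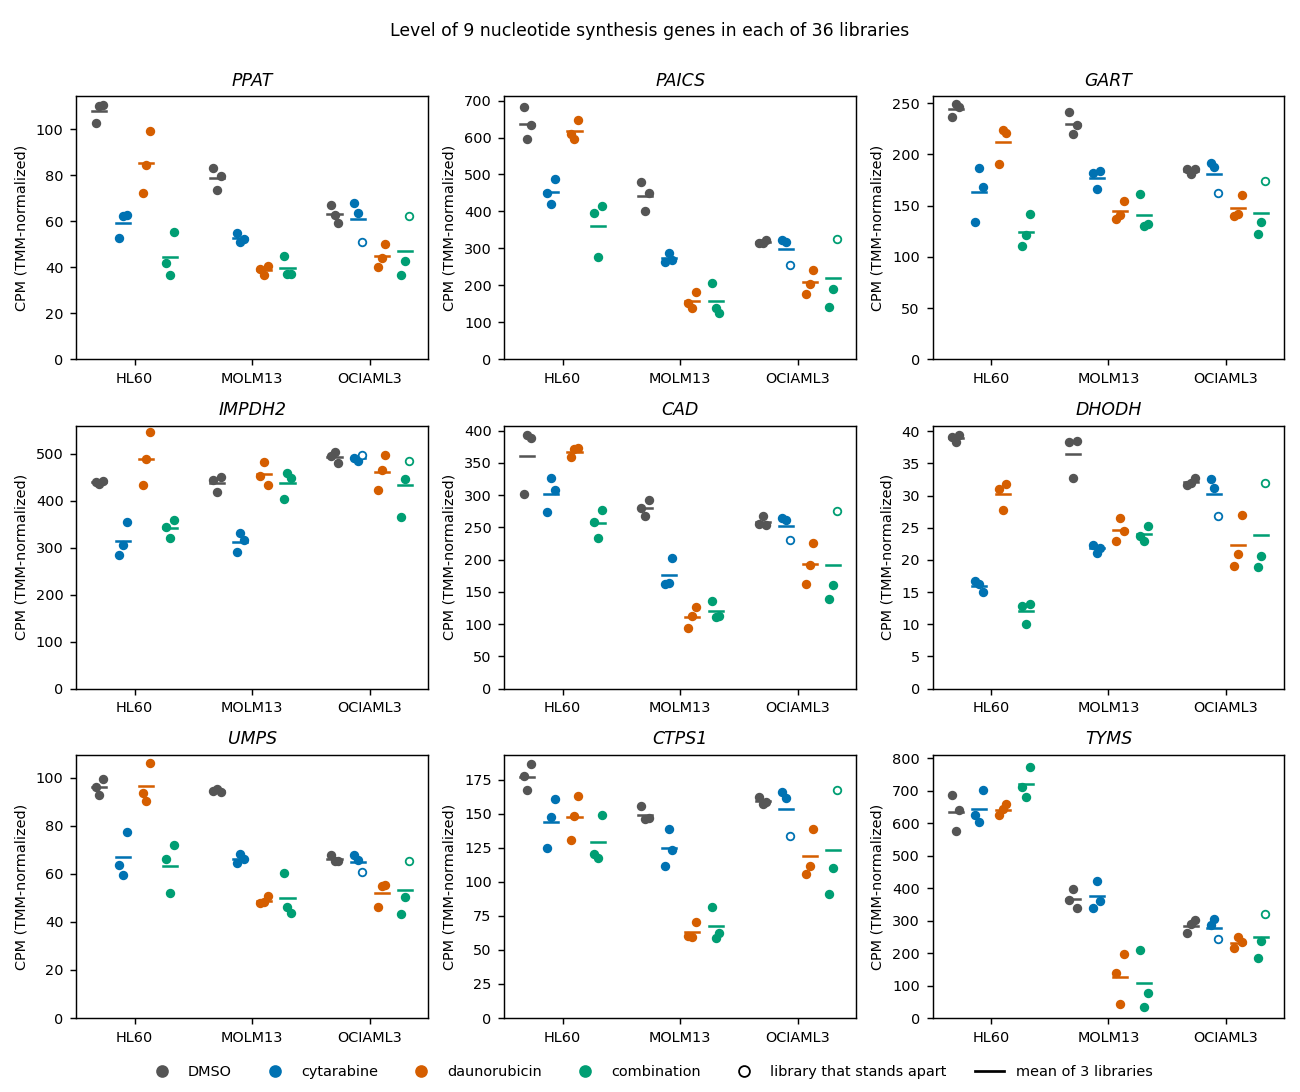
Level of each gene in CPM (vertical axis, from 0) in every library, by cell line (horizontal axis) and treatment (colour), with a bar at the mean of 3 libraries and open points for replicate 3 of OCIAML3 with cytarabine and with the combination. The treated MOLM13 libraries, and the HL60 libraries with cytarabine and with the combination, lie below DMSO in most panels. The HL60 libraries with daunorubicin overlap DMSO for PAICS, IMPDH2, CAD, UMPS and TYMS. IMPDH2 also stays near DMSO after daunorubicin in MOLM13, and TYMS stays near DMSO in HL60 after every treatment.

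In HL60 the purine and pyrimidine enzymes fell after cytarabine and after the combination, DHODH furthest and PPAT next, while the TYMS libraries overlapped those with DMSO. In MOLM13 every enzyme but IMPDH2 fell after daunorubicin and after the combination, with the largest values for TYMS and PAICS. TYMS varied widely between libraries there, its calls depended on single libraries, and its order against PAICS was not resolved. In OCIAML3 no fall passed in the fit on all libraries of the line. Falls after daunorubicin and after the combination passed there once a pair of deviating libraries was left out. Against DMSO, 8 of the 9 genes fell in HL60 after cytarabine and 8 of 9 after the combination, while 22.0% and 25.3% of all 15608 tested genes fell. After daunorubicin alone 1 of 9 fell, against 9.14% of genes, and 4 of 9 with the replicate number as a block, against 18.3%. In MOLM13, 7 of 9 fell after cytarabine, 8 of 9 after daunorubicin and 8 of 9 after the combination, against 17.8%, 25.7% and 26.0% of 16184 genes. The median log2 fold change of the 9 genes was -0.54, -0.07 and -0.66 in HL60 after cytarabine, daunorubicin and the combination, beside 0.009, 0.007 and 0.042 over all genes tested, and -0.51, -0.99 and -0.97 in MOLM13, beside 0.025, 0.068 and 0.071. No gene of the 9 rose in either line, where 12.8% to 28.1% of all genes rose in HL60 and 17.1% to 27.0% in MOLM13. At the threshold that the study used, an FDR under 0.05 with a log2 fold change beyond 1 in size, 1, 0 and 3 of 9 genes fell in HL60 after cytarabine, daunorubicin and the combination, where 3.12%, 0.538% and 6.29% of all genes fell that far, and 0, 4 and 4 of 9 fell in MOLM13 after cytarabine, daunorubicin and the combination, against 1.03%, 5.71% and 5.61%. All treated libraries lay below all DMSO libraries for 7, 4 and 8 of the 9 genes in HL60 after cytarabine, daunorubicin and the combination, where 24.4%, 18.0% and 26.2% of all genes did so, and for 8, 8 and 8 of 9 in MOLM13, against 27.0%, 31.7% and 30.3%.

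In OCIAML3, with all 12 libraries, none of the 9 genes passed after any treatment, and neither did any other of the 16650 genes tested with edgeR (0.0%). DESeq2 also gave 0 of 9 for each treatment. An unadjusted p under 0.05 was reached by 6 of 9 genes after daunorubicin, 4 after the combination and 0 after cytarabine, against 30.5%, 23.3% and 1.53% of all genes. Without the libraries labelled cytarabine replicate 3 and combination replicate 3, 8 of 9 genes fell after daunorubicin and 9 of 9 after the combination, against 16.0% and 21.6% of 16891 genes, while none passed after cytarabine, as for all genes (0.0%), with 0 of 9 at an unadjusted p under 0.05. The combination group then held 2 libraries, and the library left out of it was the one that scored near the DMSO mean. The combination count is therefore not independent of that choice. The medians of the 9 genes were then 0.03, -0.44 and -0.70 after cytarabine, daunorubicin and the combination, beside 0.002, 0.010 and 0.010 over all genes. With all libraries the median after daunorubicin was also -0.44, and neither library left out is in the daunorubicin or DMSO group. What changed for daunorubicin was the standard error, which for PPAT went from 0.18 to 0.10. Leaving out combination replicate 3 alone gave 7 of 9 genes after daunorubicin and 9 of 9 after the combination, against 14.0% and 19.5% of all genes. The treated libraries lay below DMSO without overlap for 0, 8 and 1 of 9 genes with all libraries, against 4.61%, 22.7% and 7.66% of genes, and for 0, 8 and 9 of 9 without the 2, against 9.18%, 22.4% and 28.6%.

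**Figure D2:**
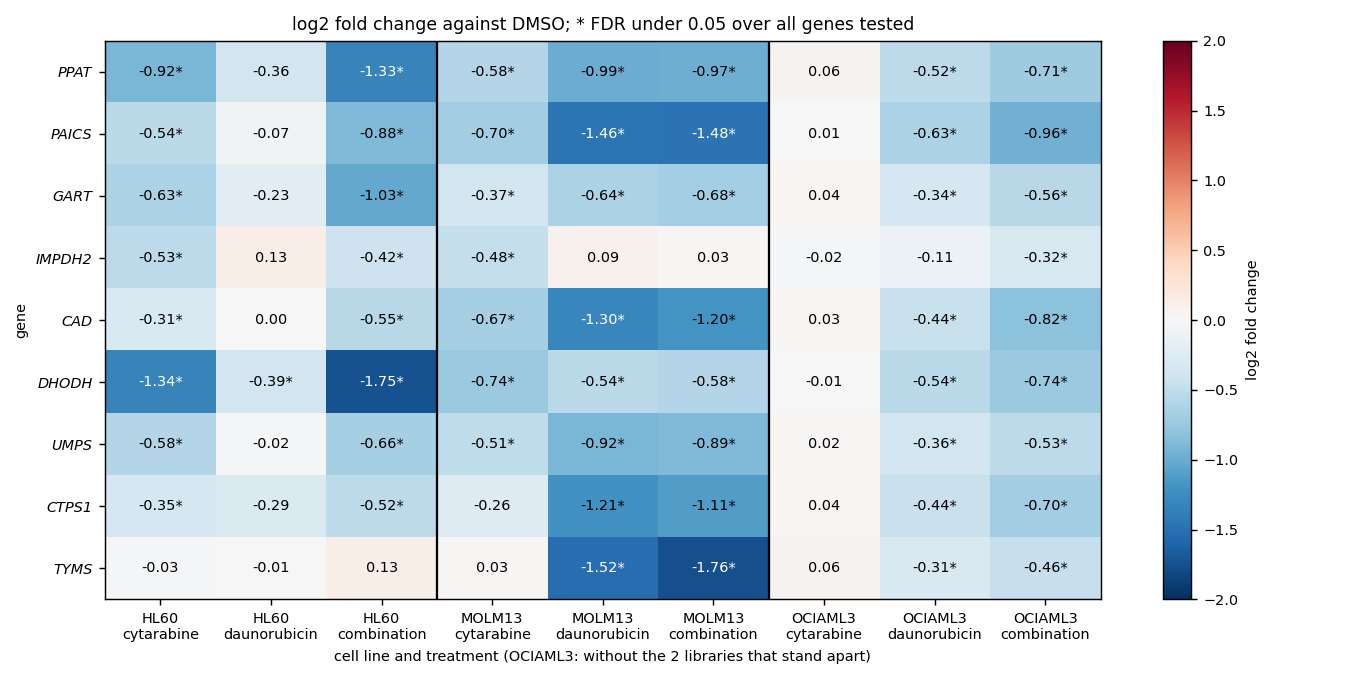
Log2 fold change of each gene (rows) against DMSO in each cell line and treatment (columns), with blue for lower and red for higher and an asterisk at an FDR under 0.05; the OCIAML3 columns leave out the 2 libraries that stand apart. DHODH reaches -1.75 in HL60 after the combination, IMPDH2 is at 0.09 in MOLM13 after daunorubicin, and TYMS lies between -0.03 and 0.13 in HL60. The HL60 columns come from the fit without the replicate number as a block, and with that block 4 of 9 genes passed after daunorubicin. With all libraries no gene passed in OCIAML3.

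PPAT, amidophosphoribosyltransferase, catalyses the committed first step of purine synthesis. The HL60 libraries held PPAT at 103, 110.2 and 110.5 CPM with DMSO, 52.5, 62.2 and 62.7 CPM with cytarabine, 72.3, 84.6 and 99.1 CPM with daunorubicin and 41.8, 36.8 and 55.3 CPM with the combination. The MOLM13 libraries held PPAT at 82.9, 73.6 and 79.6 CPM with DMSO, 54.8, 50.9 and 52.4 CPM with cytarabine, 39.1, 36.5 and 40.7 CPM with daunorubicin and 44.7, 36.9 and 36.9 CPM with the combination. The OCIAML3 libraries held PPAT at 67.2, 62.7 and 59.4 CPM with DMSO, 68.1, 63.4 and 51.1 CPM with cytarabine, 40.1, 44.1 and 49.9 CPM with daunorubicin and 36.5, 42.9 and 62.2 CPM with the combination. Every HL60 library of every treatment, and every MOLM13 library of every treatment, lay below the lowest DMSO library of its line. PPAT fell in HL60 by 0.92 ± 0.15 (FDR = 0.00034) after cytarabine and by 1.33 ± 0.15 (FDR = 1.24e-05) after the combination, and in MOLM13 by 0.58 ± 0.08 (FDR = 0.000376), by 0.99 ± 0.08 (FDR = 9.06e-06) and by 0.97 ± 0.08 (FDR = 1.15e-05) after cytarabine, daunorubicin and the combination. After daunorubicin in HL60 the difference was -0.36 ± 0.15 (FDR = 0.102), which passed with the replicate number as a block at -0.37 ± 0.10 (FDR = 0.0122). Once the 2 libraries were left out, PPAT fell in OCIAML3 by 0.52 ± 0.10 (FDR = 0.00466) after daunorubicin and by 0.71 ± 0.11 (FDR = 0.00111) after the combination, against -0.52 and -0.44 with all libraries (FDR = 0.127 and 0.209).

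GART (chr21:33503931-33543491, minus strand) is a trifunctional enzyme that makes glycinamide ribonucleotide, formylates it with a folate cofactor and closes the imidazole ring. The HL60 libraries held GART at 236, 249.7 and 246 CPM with DMSO, 134, 186 and 168 CPM with cytarabine, 191, 224 and 221 CPM with daunorubicin and 110.2, 121 and 142 CPM with the combination. In MOLM13 the levels were 241, 219.8 and 229 CPM with DMSO, 182, 166 and 183 CPM with cytarabine, 137, 141 and 155 CPM with daunorubicin and 162, 130.3 and 132 CPM with the combination. In OCIAML3 they were 186, 181 and 186 CPM with DMSO, 192, 188 and 162 CPM with cytarabine, 139.7, 142 and 161 CPM with daunorubicin and 122, 134 and 174 CPM with the combination. The treated libraries of HL60 and MOLM13 lay below DMSO without overlap, and in OCIAML3 this held for daunorubicin and the combination. GART fell in HL60 by 0.63 ± 0.13 (FDR = 0.00154) after cytarabine and by 1.03 ± 0.13 (FDR = 2.67e-05) after the combination, and in MOLM13 by 0.37 ± 0.08 (FDR = 0.00451), by 0.64 ± 0.08 (FDR = 7.55e-05) and by 0.68 ± 0.08 (FDR = 5.69e-05) after cytarabine, daunorubicin and the combination. Its HL60 value after daunorubicin was -0.23 ± 0.13 (FDR = 0.231), and -0.23 ± 0.08 (FDR = 0.0457) with the replicate block. It fell in OCIAML3 without the 2 libraries by 0.34 ± 0.07 (FDR = 0.00585) after daunorubicin and by 0.56 ± 0.08 (FDR = 0.000752) after the combination, against -0.34 and -0.38 with all libraries (FDR = 0.132 and 0.209). The first 454 bases of the annotated GART gene overlap SON, a splicing factor gene on the opposite strand. As the libraries are unstranded, reads from that overlap cannot be assigned to either gene by strand. The RefSeq starts of GART, at chr21:33542892, 33542889 and 33542117, lie outside that overlap. SON stood at 587 CPM in HL60 with DMSO and fell by 1.09 (FDR = 0.000139) after cytarabine there.

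PAICS is a bifunctional enzyme that carboxylates the imidazole ring and then couples it to aspartate. The HL60 libraries held PAICS at 683, 595 and 633 CPM with DMSO, 449.7, 419 and 488 CPM with cytarabine, 610.3, 597 and 647 CPM with daunorubicin and 395, 277 and 414 CPM with the combination. The MOLM13 libraries held PAICS at 478, 402 and 449 CPM with DMSO, 264, 287 and 268 CPM with cytarabine, 153, 138 and 183 CPM with daunorubicin and 208, 138 and 124 CPM with the combination. The OCIAML3 libraries held PAICS at 314, 315 and 322 CPM with DMSO, 324, 316 and 256 CPM with cytarabine, 177, 205 and 243 CPM with daunorubicin and 143, 191 and 326 CPM with the combination. After daunorubicin the HL60 libraries overlapped DMSO, whereas the highest MOLM13 library, at 183 CPM, was under the lowest DMSO library at 402 CPM. PAICS fell in HL60 by 0.54 ± 0.13 (FDR = 0.00399) after cytarabine and by 0.88 ± 0.13 (FDR = 9.18e-05) after the combination, and its value after daunorubicin was -0.07 ± 0.13 (FDR = 0.754). In MOLM13 it fell by 0.70 ± 0.16 (FDR = 0.00591) after cytarabine, by 1.46 ± 0.16 (FDR = 3.27e-05) after daunorubicin and by 1.48 ± 0.16 (FDR = 3.27e-05) after the combination. Without the 2 libraries PAICS fell in OCIAML3 by 0.63 ± 0.13 (FDR = 0.00615) after daunorubicin and by 0.96 ± 0.14 (FDR = 0.00102) after the combination, against -0.63 and -0.54 with all libraries (FDR = 0.137 and 0.217). PPAT and PAICS thus fell together in 7 of 9 comparisons with DMSO, with OCIAML3 taken without the 2 libraries.

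IMPDH2 (chr3:49024325-49029447, minus strand) oxidises inosine monophosphate, the rate-limiting step toward guanine nucleotides. Its level in HL60 was 440.5, 435 and 443 CPM with DMSO, 284, 305 and 355 CPM with cytarabine, 433, 489 and 547 CPM with daunorubicin and 343, 321 and 360.1 CPM with the combination. The MOLM13 libraries held IMPDH2 at 444, 418 and 450.5 CPM with DMSO, 292, 330.5 and 316 CPM with cytarabine, 454, 482 and 434 CPM with daunorubicin and 405, 460.2 and 448 CPM with the combination. The OCIAML3 libraries held IMPDH2 at 495, 504 and 481 CPM with DMSO, 491, 485 and 498 CPM with cytarabine, 423, 465 and 497 CPM with daunorubicin and 366, 447 and 485 CPM with the combination. The cytarabine libraries of HL60 and MOLM13 lay below DMSO, and the daunorubicin libraries overlapped it in all 3 lines. IMPDH2 fell after cytarabine by 0.53 ± 0.11 (FDR = 0.00138) in HL60 and by 0.48 ± 0.07 (FDR = 0.000603) in MOLM13. Its value after daunorubicin was 0.13 ± 0.11 (FDR = 0.419) in HL60 and 0.09 ± 0.07 (FDR = 0.317) in MOLM13. After the combination it fell in HL60 by 0.42 ± 0.11 (FDR = 0.00465), while its value in MOLM13 was 0.03 ± 0.07 (FDR = 0.764). Without the 2 libraries it also fell in OCIAML3 after the combination, by 0.32 ± 0.09 (FDR = 0.0219), against -0.21 with all libraries (FDR = 0.229), and its value there after daunorubicin was -0.11 ± 0.08 (FDR = 0.326), against -0.11 with all libraries (FDR = 0.452). IMPDH1, a paralog that catalyses the same reaction and can share reads with IMPDH2, went from 159, 150.2 and 162 CPM with DMSO to 96.0, 110.0 and 100.3 CPM with daunorubicin in MOLM13 and fell by 0.59 ± 0.07 (FDR = 5.23e-05). ENSG00000290315, annotated as protein-coding on the same strand, overlaps IMPDH2 by 5103 bases and was not quantified separately here, so its reads cannot be told apart from those of IMPDH2.

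CAD (chr2:27217369-27243943, plus strand) carries the first 3 activities of pyrimidine synthesis, carbamoyl phosphate synthetase, aspartate transcarbamoylase and dihydroorotase, on a single chain. Its level in HL60 was 302, 393 and 388 CPM with DMSO, 273, 326 and 308 CPM with cytarabine, 358, 372 and 372 CPM with daunorubicin and 258, 233 and 278 CPM with the combination. Its level in MOLM13 was 279.8, 267 and 293 CPM with DMSO, 162, 164 and 202 CPM with cytarabine, 94.5, 112 and 127 CPM with daunorubicin and 136, 112 and 112 CPM with the combination. Its level in OCIAML3 was 255, 268 and 253 CPM with DMSO, 265, 261 and 231 CPM with cytarabine, 163, 192 and 226 CPM with daunorubicin and 139, 161 and 276 CPM with the combination. The HL60 DMSO libraries were spread, and replicate 1 overlapped the cytarabine libraries. CAD fell in HL60 by 0.31 ± 0.12 (FDR = 0.0445) after cytarabine and by 0.55 ± 0.12 (FDR = 0.00125) after the combination. The cytarabine call was lost in 5 of 9 alternatives on all libraries, at -0.30 to -0.24 (FDR = 0.0541 to 0.228), and when any HL60 library was left out other than DMSO replicate 1, cytarabine replicate 2 and combination replicate 2, at -0.32 to -0.24 (FDR = 0.0515 to 0.162). Its HL60 value after daunorubicin was 0.00 ± 0.12 (FDR = 1.0). In MOLM13 it fell by 0.67 ± 0.12 (FDR = 0.00137) after cytarabine, by 1.30 ± 0.12 (FDR = 1.28e-05) after daunorubicin and by 1.20 ± 0.12 (FDR = 2.08e-05) after the combination, and no treated library overlapped DMSO. Its OCIAML3 level fell without the 2 libraries by 0.44 ± 0.11 (FDR = 0.0145) after daunorubicin and by 0.82 ± 0.12 (FDR = 0.00106) after the combination, against -0.44 and -0.45 with all libraries (FDR = 0.195 and 0.232).

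The transcript shares of CAD also varied between groups. CAD-201, the longer coding transcript, has 44 exons and CAD-202 has 43, since it lacks exon 13 (chr2:27226131-27226319, 189 coding bases, the length of 63 codons) and starts and ends at other positions. That exon is shown in capitals with 20 intron bases on each side, from GRCh38 on the plus strand.
CAD exon 13: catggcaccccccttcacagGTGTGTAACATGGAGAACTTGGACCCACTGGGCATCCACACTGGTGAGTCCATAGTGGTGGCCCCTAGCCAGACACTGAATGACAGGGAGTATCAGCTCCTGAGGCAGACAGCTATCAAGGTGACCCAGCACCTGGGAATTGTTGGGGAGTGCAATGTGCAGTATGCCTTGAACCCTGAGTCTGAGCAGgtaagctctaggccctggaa

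In HL60, CAD-202 held 6.49, 8.48 and 6.39 percent of the CAD counts in the DMSO libraries, 28.6, 16.9 and 12.1 percent with cytarabine, 12.9, 11.1 and 10.8 percent with daunorubicin and 37.0, 27.5 and 16.4 percent with the combination. All 9 treated libraries exceeded the highest DMSO library, and the cytarabine and combination libraries differed more between replicates than the DMSO libraries did. In MOLM13 the shares were 6.69, 2.58 and 2.33 percent with DMSO and 19.8, 9.29 and 20.4 percent with daunorubicin, again without overlap, whereas the cytarabine and combination libraries overlapped DMSO. In OCIAML3 the combination libraries held 11.96, 14.5 and 6.59 percent against 5.53, 4.26 and 7.61 percent with DMSO, and the lowest is the library that stands apart. The OCIAML3 libraries with cytarabine and with daunorubicin overlapped DMSO. These shares come from the apportioning of reads among transcripts by Salmon, and 3 against 3 libraries cannot reach an exact permutation p below 0.1, so no test was made. How often transcripts of other genes lay apart from DMSO in this way is not given here.

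**Figure D3:**
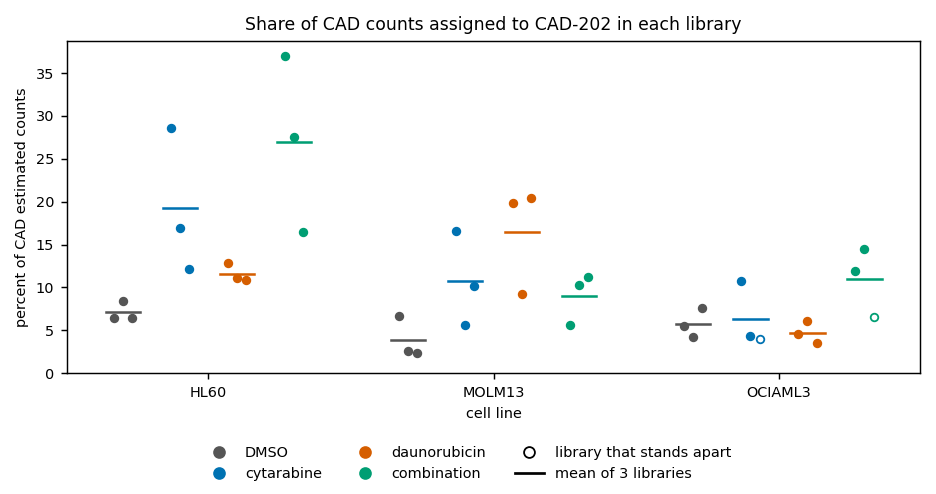
Percent of CAD estimated counts assigned to CAD-202 (vertical axis, from 0) in every library, by cell line (horizontal axis) and treatment (colour), with a bar at the mean of 3 libraries and open points for the 2 OCIAML3 libraries that stand apart. In HL60 the combination libraries reach 16.4 to 37.0 percent and the DMSO libraries 6.39 to 8.48 percent.

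DHODH, dihydroorotate dehydrogenase, passes electrons from the pyrimidine ring to the respiratory chain and is the target of inhibitors such as brequinar. Its level in HL60 was 39.1, 38.4 and 39.4 CPM with DMSO, 16.7, 16.3 and 15.0 CPM with cytarabine, 31.0, 27.8 and 31.8 CPM with daunorubicin and 12.9, 10.1 and 13.2 CPM with the combination. Its level in MOLM13 was 38.3, 32.8 and 38.5 CPM with DMSO, 22.4, 21.1 and 21.9 CPM with cytarabine, 22.9, 26.5 and 24.5 CPM with daunorubicin and 23.8, 23.0 and 25.3 CPM with the combination. Its level in OCIAML3 was 31.7, 32.0 and 32.7 CPM with DMSO, 32.6, 31.2 and 26.8 CPM with cytarabine, 19.0, 21.0 and 27.0 CPM with daunorubicin and 18.9, 20.6 and 32.0 CPM with the combination. All treated HL60 and MOLM13 libraries lay below DMSO. DHODH fell in HL60 by 1.34 ± 0.12 (FDR = 5.67e-06) after cytarabine, which left 39.6% of the DMSO level, and by 1.75 ± 0.12 (FDR = 5.63e-07) after the combination, which left 29.7%. After daunorubicin it was the single gene of the 9 to fall in HL60 in the fit without the replicate block, by 0.39 ± 0.12 (FDR = 0.0311), whereas 4 of 9 fell with the block. The call without the block was lost without any 1 of the DMSO libraries or without daunorubicin replicate 1 or 2, at -0.41 to -0.34 (FDR = 0.0669 to 0.126). It was also lost in 2 of 9 alternatives on all libraries, at -0.37 with all 36 libraries in 1 fit and -0.38 with no filter (FDR = 0.058 and 0.102). In MOLM13 DHODH fell by 0.74 ± 0.09 (FDR = 0.000163), by 0.54 ± 0.09 (FDR = 0.000437) and by 0.58 ± 0.09 (FDR = 0.000274) after cytarabine, daunorubicin and the combination. It also fell in OCIAML3 without the 2 libraries, by 0.54 ± 0.12 (FDR = 0.00777) after daunorubicin and by 0.74 ± 0.13 (FDR = 0.00197) after the combination, against -0.54 and -0.45 with all libraries (FDR = 0.128 and 0.211).

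UMPS (chr3:124730433-124749273, plus strand) joins orotate to the sugar phosphate and decarboxylates it to uridine monophosphate. Measured in HL60, it was 96.3, 93.0 and 99.6 CPM with DMSO, 63.6, 59.6 and 77.6 CPM with cytarabine, 93.6, 90.2 and 106 CPM with daunorubicin and 66.2, 51.9 and 72.1 CPM with the combination. Its level in MOLM13 was 94.7, 95.2 and 94.2 CPM with DMSO, 64.7, 68.5 and 66.1 CPM with cytarabine, 47.7, 48.2 and 50.8 CPM with daunorubicin and 60.2, 46.1 and 43.9 CPM with the combination. In OCIAML3 the levels were 67.9, 65.4 and 65.5 CPM with DMSO, 68.1, 66.0 and 61.0 CPM with cytarabine, 46.2, 54.8 and 55.6 CPM with daunorubicin and 43.5, 50.5 and 65.6 CPM with the combination. All treated MOLM13 libraries lay below the 3 close DMSO libraries, whereas the HL60 daunorubicin libraries overlapped DMSO. UMPS fell in HL60 by 0.58 ± 0.13 (FDR = 0.00282) after cytarabine and by 0.66 ± 0.13 (FDR = 0.000785) after the combination, and in MOLM13 by 0.51 ± 0.09 (FDR = 0.00177), by 0.92 ± 0.10 (FDR = 2.18e-05) and by 0.89 ± 0.09 (FDR = 2.76e-05) after cytarabine, daunorubicin and the combination. UMPS fell in OCIAML3 without the 2 libraries by 0.36 ± 0.08 (FDR = 0.0104) after daunorubicin and by 0.53 ± 0.09 (FDR = 0.00196) after the combination, against -0.36 and -0.33 with all libraries (FDR = 0.132 and 0.209). Salmon assigned 58.2 to 84.3 percent of the UMPS counts in a library to transcripts annotated as targets of nonsense-mediated decay and 15.6 to 37.9 percent to the coding transcripts. With protein-coding transcripts alone, the MOLM13 values after cytarabine and the combination, -0.46 and -0.39, no longer passed (FDR = 0.1 and 0.132). Nor did UMPS then pass for daunorubicin against cytarabine in HL60 (0.57, FDR = 0.0503) and MOLM13 (-0.16, FDR = 0.592), for the combination against the sum of single drugs in MOLM13 (0.71, FDR = 0.116), or for the daunorubicin effect in HL60 minus MOLM13 (0.61, FDR = 0.115) and in MOLM13 minus OCIAML3 (-0.33, FDR = 0.482).

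CTPS1 (chr1:40979300-41012565, plus strand) turns uridine triphosphate into cytidine triphosphate. Measured in HL60, it was 178, 167 and 187 CPM with DMSO, 125, 148 and 161 CPM with cytarabine, 131, 148 and 163 CPM with daunorubicin and 121, 118 and 149 CPM with the combination. Measured in MOLM13, it was 155, 146 and 147 CPM with DMSO, 112, 139 and 123 CPM with cytarabine, 60.3, 59.2 and 70.5 CPM with daunorubicin and 81.9, 58.9 and 62.8 CPM with the combination. Its level in OCIAML3 was 162, 158 and 159 CPM with DMSO, 166, 161 and 134 CPM with cytarabine, 106, 112 and 139 CPM with daunorubicin and 91.4, 110.3 and 168 CPM with the combination. All treated HL60 and MOLM13 libraries lay below DMSO, and the MOLM13 libraries with daunorubicin and with the combination lay furthest below. CTPS1 fell in HL60 by 0.35 ± 0.12 (FDR = 0.0353) after cytarabine and by 0.52 ± 0.13 (FDR = 0.00341) after the combination. The first call was lost without HL60 DMSO replicate 1 or 3, cytarabine replicate 1 or 2, or combination replicate 1, at -0.37 to -0.25 (FDR = 0.0586 to 0.148), and in 4 of 9 alternatives on all libraries, at -0.35 to -0.24 (FDR = 0.0524 to 0.136). Its HL60 value after daunorubicin was -0.29 ± 0.12 (FDR = 0.111), and it passed with the replicate block at -0.30 ± 0.08 (FDR = 0.0086). In MOLM13 its value after cytarabine was -0.26 ± 0.12 (FDR = 0.106), and it fell by 1.21 ± 0.12 (FDR = 1.73e-05) after daunorubicin and by 1.11 ± 0.12 (FDR = 2.79e-05) after the combination. Without the 2 libraries CTPS1 fell in OCIAML3 by 0.44 ± 0.11 (FDR = 0.012) and by 0.70 ± 0.12 (FDR = 0.00167) after the same treatments, against -0.44 and -0.39 with all libraries (FDR = 0.161 and 0.238). The paralog CTPS2 stood at 19.0, 17.5 and 18.8 CPM in MOLM13 with DMSO, and its value there after daunorubicin was -0.24 ± 0.10 (FDR = 0.0672).

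TYMS, thymidylate synthase, methylates deoxyuridylate with a folate cofactor and is the target of fluorouracil. Measured in HL60, it was 686, 577 and 642 CPM with DMSO, 627, 602 and 702 CPM with cytarabine, 626, 643 and 658 CPM with daunorubicin and 713, 680.0 and 773 CPM with the combination. Measured in MOLM13, it was 364, 398 and 340.0 CPM with DMSO, 339.9, 424 and 362 CPM with cytarabine, 139.7, 42.2 and 196 CPM with daunorubicin and 211, 32.9 and 78.4 CPM with the combination. Measured in OCIAML3, it was 260.4, 290.5 and 303 CPM with DMSO, 287, 306 and 242 CPM with cytarabine, 214, 248 and 235 CPM with daunorubicin and 186, 238 and 322 CPM with the combination. The HL60 libraries overlapped DMSO after every treatment, and in MOLM13 all daunorubicin and combination libraries lay below DMSO while differing widely among themselves, with replicate 2 lowest in both. Its HL60 values were -0.03 ± 0.09 (FDR = 0.813), -0.01 ± 0.09 (FDR = 0.963) and 0.13 ± 0.09 (FDR = 0.272) after cytarabine, daunorubicin and the combination. In MOLM13 its value after cytarabine was 0.03 ± 0.57 (FDR = 0.973), and it fell by 1.52 ± 0.58 (FDR = 0.0468) after daunorubicin and by 1.76 ± 0.59 (FDR = 0.0256) after the combination. The daunorubicin call was lost when any MOLM13 library was left out other than daunorubicin replicate 3 and combination replicates 1 and 2, at -1.62 to -1.13 (FDR = 0.0556 to 0.118), and with protein-coding transcripts or the length offset, at -1.43 and -1.5 (FDR = 0.0568 and 0.0512). The combination call was lost without DMSO replicate 1 or 2 or combination replicate 2 or 3, at -1.77 to -1.34 (FDR = 0.0524 to 0.0922), and without combination replicate 1 the value was -2.72 (FDR = 0.0015). Without the 2 libraries TYMS fell in OCIAML3 by 0.31 ± 0.10 (FDR = 0.037) after daunorubicin and by 0.46 ± 0.11 (FDR = 0.00833) after the combination, against -0.31 and -0.21 with all libraries (FDR = 0.231 and 0.426). TYMSOS and ENOSF1 overlap TYMS on the opposite strand by 698 and 3261 bases, and in unstranded libraries their reads cannot be told apart by strand there. With DMSO they stood at 2.88 and 124 CPM in HL60.

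TYMS is transcribed mostly around S phase, and a list of 16 other S phase genes, among them MCM2 to MCM7, PCNA and CDC45, was read beside it. In MOLM13, 14 of 16 fell after daunorubicin and 16 of 16 after the combination, where 25.7% and 26.0% of all genes fell. The medians were -2.06 and -2.13, and the median after cytarabine was -0.20. In HL60 2, 0 and 2 of 16 fell and 4, 2 and 3 rose, with medians of -0.01, 0.07 and -0.02, after cytarabine, daunorubicin and the combination. Over all genes 22.0%, 9.14% and 25.3% fell there and 23.6%, 12.8% and 28.1% rose, so these HL60 counts lay near or below the shares over all genes. In OCIAML3, with the 2 libraries left out, 15 of 16 fell after daunorubicin and 15 of 16 after the combination, where 16.0% and 21.6% of all genes fell. The medians of these S phase genes were -0.56 and -0.93, against 0 of 16 and medians of -0.55 and -0.46 with all libraries. Their part in the fall of the 9 enzymes was not tested.

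The drugs were then compared with each other. In HL60, 6 of 9 genes were higher after daunorubicin than after cytarabine, against 8.62% of all genes, and none was lower. DHODH was higher by 0.94 ± 0.12 (FDR = 0.000719) and IMPDH2 by 0.66 ± 0.11 (FDR = 0.00263), and PPAT, PAICS, GART and UMPS were higher by 0.41 to 0.56. CAD, at 0.31 ± 0.12 (FDR = 0.0877), passed with the replicate block at 0.31 ± 0.09 (FDR = 0.0187), which made 7 of 9 against 18.2% of genes. Without HL60 cytarabine replicate 1, or without HL60 daunorubicin replicate 3, 2 of 9 passed. PAICS no longer passed with all 36 libraries in 1 fit (0.45, FDR = 0.122), PPAT with the length offset (0.47, FDR = 0.128), and GART with RLE scaling, the 1 CPM filter or protein-coding transcripts (0.38 to 0.39, FDR = 0.0532 to 0.0601). In MOLM13 6 of 9 genes were lower after daunorubicin than after cytarabine, against 13.5% of all genes. CTPS1 was lower by 0.95 ± 0.12 (FDR = 0.0013) and PAICS by 0.76 ± 0.16 (FDR = 0.00709), followed by CAD, PPAT, UMPS and GART at 0.27 to 0.64, and GART no longer passed with all 36 libraries in 1 fit (-0.30, FDR = 0.0813) or the length offset (-0.12, FDR = 0.337). IMPDH2 was higher by 0.57 ± 0.07 (FDR = 0.00143), as in HL60, and 12.6% of all genes were higher. TYMS, at -1.55 ± 0.59 (FDR = 0.0723), and DHODH, at 0.21 ± 0.09 (FDR = 0.113), did not pass. In OCIAML3 0 of 9 passed with edgeR and with DESeq2 on all libraries, against 0.0% of all genes, with 4 of 9 at an unadjusted p under 0.05, against 14.9%. Without the 2 libraries 8 of 9 were lower after daunorubicin, all but IMPDH2, against 12.4% of genes. The cytarabine library left out had been set apart for its score toward the daunorubicin mean. This count is therefore not independent of that choice.

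**Figure D4:**
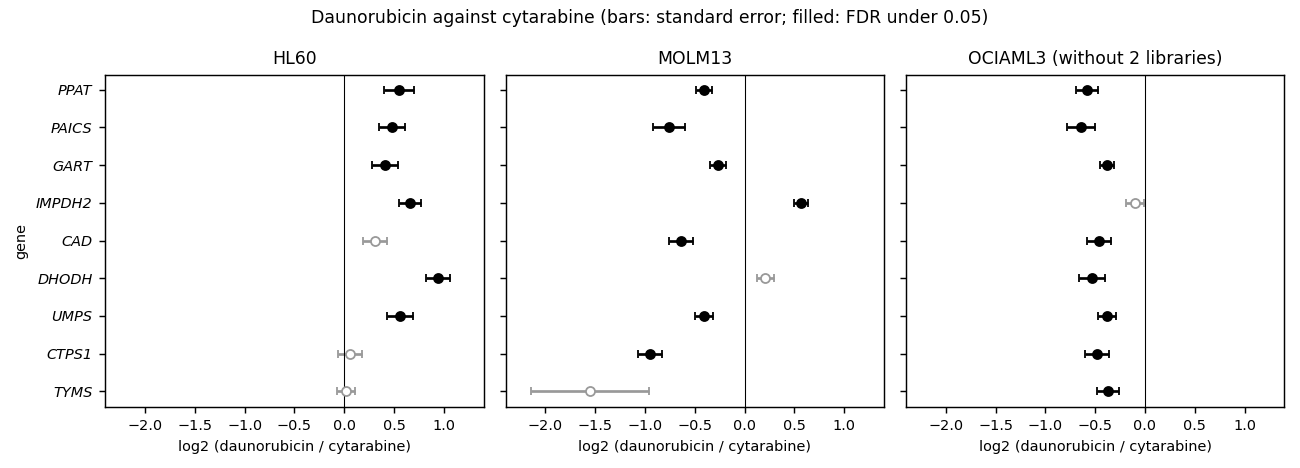
Log2 ratio of daunorubicin to cytarabine (horizontal axis) for each gene (vertical axis) in the 3 lines, with bars of 1 standard error and filled points at an FDR under 0.05; OCIAML3 leaves out the 2 libraries that stand apart. In HL60 DHODH reaches 0.94, and in MOLM13 CTPS1 lies at -0.95 and IMPDH2 at 0.57. The HL60 panel comes from the fit without the replicate block, and with that block 7 of 9 genes passed. With all libraries no gene passed in OCIAML3.

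The combination was compared with the sum of both single-drug effects on the log2 scale. In HL60 0 of 9 genes departed from the sum with edgeR and with DESeq2, against 5.14% of all genes, with 0 of 9 at an unadjusted p under 0.05, against 20.8%, and the values lay between -0.26 and 0.17. In MOLM13 5 of 9 genes lay above the sum, against 9.99% of all genes. CAD lay above the sum by 0.77 ± 0.17 (FDR = 0.00961), DHODH by 0.71 ± 0.13 (FDR = 0.00419), PPAT by 0.60 ± 0.12 (FDR = 0.00559), UMPS by 0.54 ± 0.13 (FDR = 0.0182) and IMPDH2 by 0.42 ± 0.10 (FDR = 0.0184). PAICS and GART, at 0.68 and 0.34, did not pass (FDR = 0.0567 and 0.0629), nor did CTPS1 at 0.36 ± 0.17 (FDR = 0.162) and TYMS at -0.27 ± 0.81 (FDR = 0.863). With all 36 libraries in 1 fit PPAT no longer passed (0.61, FDR = 0.067), nor did UMPS with the length offset (0.51, FDR = 0.0878).

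The lines were compared by the difference between their effects. For daunorubicin 7 of 9 genes differed between HL60 and MOLM13, all of them higher in HL60, against 13.9% of all genes. PAICS differed by 1.44 ± 0.28 (FDR = 0.000647), CAD by 1.36 ± 0.23 (FDR = 0.000191) and TYMS by 1.56 ± 0.55 (FDR = 0.0412), and PPAT, GART, UMPS and CTPS1 by 0.47 to 0.97. IMPDH2 and DHODH did not pass, at 0.09 ± 0.13 (FDR = 0.707) and 0.20 ± 0.20 (FDR = 0.546). For the combination 5 of 9 genes differed, against 27.4% of all genes, and they went both ways: relative to DMSO, CAD, CTPS1 and TYMS were lower in MOLM13, and DHODH and IMPDH2 were lower in HL60, and the difference of DHODH was -1.08 ± 0.20 (FDR = 0.000139). Without the 2 OCIAML3 libraries, which enter this fit through the shared estimate of the spread, PAICS also differed for the combination, which made 6 of 9 against 28.4%. For cytarabine 0 of 9 genes differed between these lines with edgeR, against 8.38% of all genes, with 1 of 9 at an unadjusted p under 0.05, against 21.6%. DESeq2, and edgeR without the 2 libraries (against 9.61%), each called 1 of 9, which with edgeR was DHODH at -0.54 ± 0.15 (FDR = 0.0203). Between MOLM13 and OCIAML3 4 of 9 genes differed after daunorubicin, all lower in MOLM13, against 7.47% of all genes, and 5 of 9 without the 2 libraries, against 9.07%. Between HL60 and OCIAML3 0 of 9 differed after daunorubicin with edgeR and with DESeq2, against 5.21% of all genes, with 0 of 9 at an unadjusted p under 0.05, against 18.6%. Without the 2 libraries 0 of 9 differed, against 6.85%.

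Across the 36 libraries, with the mean of each line subtracted, the levels of PPAT, PAICS, GART, CAD, DHODH, UMPS and CTPS1 followed one another, with Pearson's r on the log2 scale between 0.511 and 0.975 over 21 pairs of genes. The pairs with IMPDH2 ranged from -0.311 to 0.691 and those with TYMS from -0.311 to 0.783, where the lowest value was that of IMPDH2 with TYMS. Libraries of a line share cells and treatments and the genes share each library's depth, so these values describe the pattern. Among 8710 protein-coding genes with at least 5 CPM in every line, the genes most like GART were PPAT (r = 0.975), SMARCC1 (0.973) and TSR1 (0.97). Those most like PPAT were DLAT, TSR1 and PNPT1 at 0.982 to 0.984, those most like PAICS were B4GALT2, ATAD3A and DCTPP1 at 0.977 to 0.987, and those most like TYMS were DIAPH3, GGH and FOXM1 at 0.988 to 0.99. The genes most like CAD were SLCO4A1, PM20D2 and WDR5 at 0.957 to 0.958, those most like DHODH WDR12, PCID2 and NRROS at 0.97 to 0.978, those most like UMPS SNRPF, CYCS and AFG3L2 at 0.975 to 0.983, and those most like CTPS1 NUP155, TFDP1 and PRPS1 at 0.972 to 0.976. IMPDH2 had no partner as close, with SLC25A3 at 0.943 and CBX6 and RACK1 at 0.865 and 0.862.

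The other genes of these pathways were taken from 6 lists of 70 genes found in the files. As background, 22.0%, 9.14% and 25.3% of all genes fell and 23.6%, 12.8% and 28.1% rose in HL60 after cytarabine, daunorubicin and the combination, 17.8%, 25.7% and 26.0% fell and 17.1%, 26.9% and 27.0% rose in MOLM13, and in OCIAML3 without the 2 libraries 0.0%, 16.0% and 21.6% fell and 0.0%, 15.3% and 20.1% rose. Among 11 other genes of purine synthesis, 7 fell and 1 rose in HL60 after cytarabine, 1 fell after daunorubicin, and 7 fell and 2 rose after the combination. In MOLM13 6 fell and 1 rose after cytarabine, 9 fell and 2 rose after daunorubicin, and 9 fell and 1 rose after the combination. With the 2 libraries left out, 8 fell in OCIAML3 after daunorubicin, among them ADSS1, an adenylosuccinate synthase, by 0.90 ± 0.19 (FDR = 0.00811), against -0.90 with all libraries (FDR = 0.122), and 9 fell after the combination. Of 4 other pyrimidine genes, 2 fell in HL60 after cytarabine, 1 rose after daunorubicin and 3 fell after the combination. In MOLM13 2, 3 and 4 of them fell after cytarabine, daunorubicin and the combination, and in OCIAML3 without the 2 libraries 0, 1 and 4 fell.

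Of the 7 genes of deoxynucleotide and thymidylate synthesis, 4, 2 and 4 rose in HL60 with cytarabine, daunorubicin and the combination, and none fell, with medians of 0.37, 0.13 and 0.48. In MOLM13 1 fell and 1 rose after cytarabine, and 6 fell and 1 rose after daunorubicin and after the combination, with medians of 0.28, -1.62 and -1.64. In OCIAML3 without the 2 libraries 6 fell and 1 rose after daunorubicin and after the combination, with medians of -0.56 and -0.78. The daunorubicin effect of 7 of 7 differed between HL60 and MOLM13, with 6 higher in HL60 relative to DMSO, against 13.9% of all genes, and 1 lower. RRM2, the S phase subunit of ribonucleotide reductase, stood at 386, 419 and 362 CPM in MOLM13 with DMSO and 63.5, 19.0 and 97.7 CPM with daunorubicin, and fell by 2.67 ± 0.75 (FDR = 0.0109) and, after the combination, by 2.31 ± 0.74 (FDR = 0.0207). It also fell in OCIAML3 without the 2 libraries, by 1.08 ± 0.10 (FDR = 0.000553) after daunorubicin and by 1.47 ± 0.12 (FDR = 0.000247) after the combination, against -1.08 and -0.67 with all libraries (FDR = 0.133 and 0.303). RRM2B, the subunit induced by p53, rose there by 1.04 ± 0.09 (FDR = 0.000439) and by 1.20 ± 0.10 (FDR = 0.000247), against 1.04 and 0.89 with all libraries (FDR = 0.122 and 0.209).

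Of the folate and one-carbon genes, 6 of 15 fell and 2 rose in HL60 after cytarabine, 2 fell and 2 rose after daunorubicin, and 8 fell and 3 rose after the combination, and in MOLM13 8 of 16 fell and 2 rose after cytarabine, 11 fell and 1 rose after daunorubicin, and 10 fell and 1 rose after the combination. SLC25A32, the mitochondrial folate carrier, stood at 103, 91.9 and 91.5 CPM in HL60 with DMSO and at 30.0, 27.8 and 39.3 CPM with the combination. It fell in HL60 by 1.33 ± 0.13 (FDR = 9.28e-06), by 0.69 ± 0.13 (FDR = 0.00262) and by 1.62 ± 0.13 (FDR = 1.22e-06) after cytarabine, daunorubicin and the combination, and in MOLM13 by 0.92 ± 0.09 (FDR = 7.24e-05) after cytarabine. MTHFD2L, a mitochondrial methylenetetrahydrofolate dehydrogenase, fell in HL60 by 1.08 ± 0.14 (FDR = 5.42e-05), by 0.56 ± 0.14 (FDR = 0.0115) and by 1.52 ± 0.14 (FDR = 2.53e-06). ALDH1L2, a mitochondrial formyltetrahydrofolate dehydrogenase, rose in HL60 after daunorubicin by 0.79 ± 0.17 (FDR = 0.00672). SHMT1, the cytosolic serine hydroxymethyltransferase, fell in MOLM13 by 2.71 ± 0.59 (FDR = 0.00244) after daunorubicin and by 2.28 ± 0.57 (FDR = 0.0056) after the combination. SLC19A1, the reduced folate carrier of the plasma membrane, fell in MOLM13 by 0.96 ± 0.13 (FDR = 0.000311) after cytarabine and in OCIAML3 without the 2 libraries by 1.35 ± 0.18 (FDR = 0.000689) after the combination, against -0.79 with all libraries (FDR = 0.209).

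Salvage and breakdown genes went both ways. Of 15 salvage genes, 3 fell and 5 rose in HL60 after cytarabine, where 22.0% and 23.6% of all genes did. In MOLM13 5 fell and 3 rose after daunorubicin, against 25.7% and 26.9%, so the salvage counts lay near the shares over all genes. TK1, the S phase thymidine kinase, stood at 152, 121 and 129.7 CPM in HL60 with DMSO and 439, 412 and 417 CPM with the combination, and rose by 1.31 ± 0.11 (FDR = 3.23e-06), by 0.94 ± 0.11 (FDR = 0.000153) and by 1.60 ± 0.11 (FDR = 5.43e-07) after cytarabine, daunorubicin and the combination. TK2, the mitochondrial thymidine kinase, rose in HL60 by 1.28 ± 0.17 (FDR = 7.78e-05) after cytarabine and by 1.64 ± 0.17 (FDR = 6.47e-06) after the combination. ADA, adenosine deaminase, rose in MOLM13 by 1.46 ± 0.17 (FDR = 0.000159), by 1.95 ± 0.18 (FDR = 1.22e-05) and by 1.76 ± 0.18 (FDR = 2.17e-05). UPP1, uridine phosphorylase, rose there after cytarabine by 1.51 ± 0.37 (FDR = 0.00828). Of 12 breakdown genes tested in MOLM13, 3 fell and 6 rose after daunorubicin, against 25.7% and 26.9% of all genes. TYMP, thymidine phosphorylase, stood at 198, 249.9 and 210.3 CPM with DMSO and 725, 636 and 510.1 CPM with daunorubicin, and rose by 1.54 ± 0.19 (FDR = 5.64e-05) and, after the combination, by 1.60 ± 0.19 (FDR = 4.82e-05). It rose in OCIAML3 without the 2 libraries by 1.00 ± 0.19 (FDR = 0.00551) and by 1.33 ± 0.21 (FDR = 0.00125), against 1.00 and 0.98 with all libraries (FDR = 0.124 and 0.209).

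**Figure D5:**
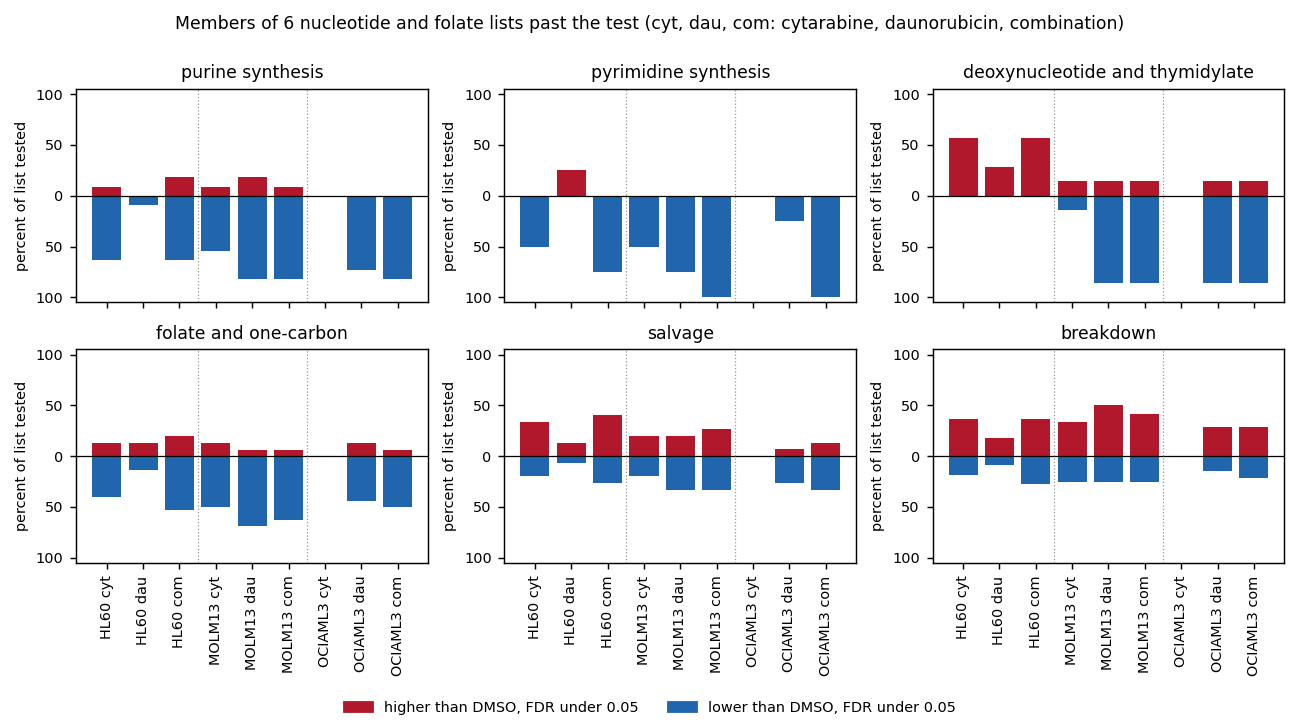
Percent of the tested genes of each list (panels) that passed at an FDR under 0.05 (vertical axis, higher than DMSO in red above 0 and lower in blue below 0) after each treatment in each cell line (horizontal axis), with OCIAML3 without the 2 libraries that stand apart. After daunorubicin, 2 of 7 deoxynucleotide and thymidylate genes rose and none fell in HL60, while 6 of 7 fell and 1 rose in MOLM13, and after cytarabine 4 rose in HL60, while 1 fell and 1 rose in MOLM13. With all libraries no gene passed in OCIAML3.

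MYC and E2F1 were followed as regulators. MYC, a transcription factor known to drive nucleotide synthesis genes, stood in HL60 at 557, 778 and 688 CPM with DMSO, 279.9, 320.5 and 316 CPM with cytarabine, 534, 668 and 864 CPM with daunorubicin and 217, 125 and 179.7 CPM with the combination. The daunorubicin libraries overlapped DMSO and the others lay below it, and the log2 fold changes were -1.19 ± 0.20 (FDR = 0.000399), 0.01 ± 0.20 (FDR = 0.989) and -2.02 ± 0.21 (FDR = 5.63e-06). In MOLM13 they were -1.49 ± 0.16 (FDR = 9.49e-05), -1.19 ± 0.16 (FDR = 9.27e-05) and -0.98 ± 0.16 (FDR = 0.000343). Left without the 2 libraries, OCIAML3 gave -0.00 ± 0.11 (FDR = 1.0), -0.72 ± 0.10 (FDR = 0.00175) and -0.82 ± 0.11 (FDR = 0.000788), against -0.11 ± 0.20 (FDR = 1.0), -0.72 ± 0.20 (FDR = 0.122) and -0.51 ± 0.20 (FDR = 0.209) with all libraries. E2F1, which drives S phase genes such as TYMS, rose in HL60 after every treatment, with 0.91 ± 0.18 (FDR = 0.00105), 0.54 ± 0.18 (FDR = 0.043) and 0.94 ± 0.18 (FDR = 0.000609). In MOLM13 its value was -0.16 ± 0.58 (FDR = 0.868) after cytarabine, and it fell after daunorubicin and the combination, with -2.28 ± 0.62 (FDR = 0.00944) and -2.43 ± 0.62 (FDR = 0.00675). In OCIAML3 without the 2 libraries its value was 0.04 ± 0.12 (FDR = 1.0) after cytarabine, and it fell after daunorubicin and the combination, with -0.37 ± 0.11 (FDR = 0.0292) and -0.57 ± 0.13 (FDR = 0.00533), against -0.37 ± 0.20 (FDR = 0.227) and -0.24 ± 0.20 (FDR = 0.442) with all libraries. The part of MYC and E2F1 in the levels of the 9 enzymes was not tested.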

How the data were processed

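RNA of HL60, MOLM13 and OCIAML3 cells was sequenced as unstranded paired-end libraries, in 12 groups of 3 labelled as biological replicates, and the p-values measure the spread between these libraries. The authors quantified transcripts with Salmon 1.8.0 against a decoy-aware Ensembl GRCh38 index, and their notes also name FastQC 0.11.9, tximeta and edgeR 3.38.1. The estimated counts and the TPM per transcript were used as deposited, with the authors' effective transcript lengths for 1 alternative. Of 252199 transcripts per library, 235378 matched GENCODE release 44 by identifier, and the 16821 others, with 3.99% to 4.52% of the counts, were left out. Estimated counts of a gene's transcripts were added up, and the sums were rounded. A library held 25067734 to 47322144 estimated counts, and each standard error covers counting error and the spread between libraries together.

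Genes were kept by filterByExpr (minimum count 10, minimum total 15), scaled by TMM and tested with the quasi-likelihood test of edgeR 4.0.16 (R 4.3.3), in its older form, on the 12 libraries of a line. Differences between lines were tested on all 36. The Benjamini-Hochberg FDR ran over all genes tested, with 0.05 as the threshold. The scripts were tested on simulated data. Levels are CPM on 1 TMM scale over all libraries. Alternatives were DESeq2 1.42.0, other scaling, filters and transcript sets, the newer quasi-likelihood form, a length offset, a replicate block, each library left out, and 2 OCIAML3 libraries left out. Deviations from the group mean of same-numbered HL60 libraries correlated at 0.127 to 0.295 between every pair of groups, so the numbers were taken as pairing the HL60 libraries. This pairing comes from the data, not from the labels. The HL60 values given come from the fit without this pairing, except where the replicate block is named.

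The 9 genes and the wider lists were chosen with earlier results of these data known. From the wider lists, the text names the 2 genes with the highest and the 2 with the lowest log2 fold change among those past the threshold in each comparison with DMSO, where the higher group averaged 5 CPM or more, and the paralogs IMPDH1 and CTPS2. It also names genes that overlap a listed gene, or start within 1000 bases of it on the other strand, and the 3 genes most like each enzyme by Pearson's r of log2(CPM + 0.5). Transcripts are described only where they held at least 10% of a gene, and not every such transcript is described in every line. Sequences were taken from the RefSeq tables (GRCh38.p14), which held 8 of the 9 promoter windows.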

Additional observations from a re-analysis of the deposited data

Results flagged for a closer look

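The effects of the drugs differed between lines for several of the 9 enzymes, each tested as an interaction term of edgeR over all 36 libraries with an FDR under 0.05. For daunorubicin, the log2 effect in HL60 minus that in MOLM13 was 1.44 for PAICS, 1.36 for CAD, 0.96 for UMPS, 0.97 for CTPS1, 0.68 for PPAT, 0.47 for GART and 1.56 for TYMS. All 7 enzymes were thus higher in HL60 than in MOLM13 relative to their DMSO libraries. The FDR of these 7 lay between 0.000191 for CAD and 0.0454 for GART. GART no longer passed under 5 of 9 alternatives, at 0.29 to 0.42 (FDR = 0.0781 to 0.237), nor in 21 of 36 refits without 1 library. TYMS no longer passed with RLE scaling (1.49, FDR = 0.0512), with protein-coding transcripts (1.45, FDR = 0.0512) and in 11 of 36 refits without 1 library, PPAT with the length offset (0.63, FDR = 0.0863) and in 3 of 36, and UMPS with protein-coding transcripts (0.61, FDR = 0.115).

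For the combination, the same difference was 0.73 for CAD, 0.68 for CTPS1 and 1.96 for TYMS, which were lower in MOLM13 relative to DMSO, and -1.08 for DHODH and -0.36 for IMPDH2, which were lower in HL60. The difference of DHODH, the enzyme of the inner mitochondrial membrane, had an FDR of 0.000139. IMPDH2 no longer passed with the length offset (-0.29, FDR = 0.143) and in 10 of 36 refits without 1 library, CTPS1 in 4 and CAD in 2.

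For daunorubicin, the effect in MOLM13 minus that in OCIAML3 was -0.91 for CAD, -0.61 for UMPS, -0.88 for PAICS and -0.82 for CTPS1, so that these 4 enzymes were lower in MOLM13 relative to DMSO. UMPS no longer passed with RLE scaling (-0.55, FDR = 0.0504), no filter (-0.59, FDR = 0.059), protein-coding transcripts (-0.33, FDR = 0.482) and the length offset (-0.59, FDR = 0.0753), and in 10 of 36 refits without 1 library. PAICS no longer passed with RLE scaling (-0.82, FDR = 0.0628), protein-coding transcripts (-0.78, FDR = 0.0616) and the length offset (-0.84, FDR = 0.0569), and in 13 of 36 refits, and CTPS1 in 4 of 36. OCIAML3 was grown in alpha-MEM and MOLM13 in RPMI, so the medium and the line cannot be told apart here.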

How the results depend on the processing

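Each comparison was refitted under 9 alternatives, or 11 for the comparisons within OCIAML3, and with each library left out, and 198 results of the 9 enzymes, 85 of which passed, changed direction while past the threshold in 0 cases. Of the 85, 30 no longer passed in at least 1 refit and 25 in at least 1 that kept every library or left out the 2 OCIAML3 libraries. The causes were not tested where none is given. After daunorubicin in HL60, 1 of 9 enzymes passed, against 0 with all 36 libraries in 1 fit, 0 with no filter on low counts and 4 with the replicate block. The count was 0 to 2 with 1 library left out, with 0 without any DMSO replicate or daunorubicin replicate 1 or 2. For daunorubicin against cytarabine in HL60 it was 2 to 6, with 2 without cytarabine replicate 1 or daunorubicin replicate 3.

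In OCIAML3, 0 enzymes passed after daunorubicin, after the combination and for daunorubicin against cytarabine, and 8, 9 and 8 without cytarabine replicate 3 and combination replicate 3. The counts for the combination and for daunorubicin against cytarabine are not independent of the choice of these libraries. The replicate block without these 2 libraries, an alternative chosen after seeing the data, gave 8, 9 and 8. With all 36 libraries in 1 fit, 1 enzyme passed after daunorubicin. With 1 library left out the counts were 0 to 7 after daunorubicin and 0 to 9 after the combination, with 7 and 9 without combination replicate 3. Replicate numbers were not taken as pairing in MOLM13 and OCIAML3, where deviations of same-numbered libraries correlated at 0.028 to 0.201 and -0.171 to 0.376, and 4 and 3 of 12 libraries were closest to their own number in every other group. There, the replicate block on all libraries moved no count of calls by over 1.5 times.

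Between lines, 0 enzymes differed for cytarabine between HL60 and MOLM13, against 1 without the 2 OCIAML3 libraries, 1 with DESeq2, and 0 to 1 with a library left out, with 1 without OCIAML3 combination replicate 3. For daunorubicin 7 differed, 4 with protein-coding transcripts and 4 to 7 with a library left out, with 4 without HL60 daunorubicin replicate 3, MOLM13 DMSO replicate 1 or MOLM13 daunorubicin replicate 2. For the combination 5 differed, and 2 to 7 with a library left out, with 2 without MOLM13 combination replicate 2 and 3 without HL60 DMSO replicate 1 or 2 or MOLM13 combination replicate 3. For daunorubicin between MOLM13 and OCIAML3 4 differed, 2 each with RLE scaling, protein-coding transcripts and the length offset, and 1 to 5 with a library left out. It was 1 without MOLM13 DMSO replicate 1, MOLM13 daunorubicin replicate 1 or 2 or OCIAML3 daunorubicin replicate 3, and 2 without MOLM13 DMSO replicate 3, any OCIAML3 DMSO replicate or OCIAML3 daunorubicin replicate 2. In DMSO, 2 enzymes were lower in MOLM13 than in HL60, 4 with no filter, 4 with protein-coding transcripts, 1 with the length offset and 0 to 3 with a library left out, with 0 without MOLM13 DMSO replicate 2 and 1 without HL60 or MOLM13 DMSO replicate 3. Between OCIAML3 and MOLM13 3 were lower, and 1 to 4 with a library left out, with 1 without MOLM13 DMSO replicate 1, MOLM13 cytarabine replicate 2 or OCIAML3 DMSO replicate 2, and between OCIAML3 and HL60 6, and 5 to 7. With 3 libraries per group, differences smaller than the spread between them were not detectable.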

Other observations

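GART and DHODH each had a second transcript whose share of the gene's counts varied between groups. These are shares of Salmon's estimated counts, and no test was run on them. A share of all transcripts that lay apart from DMSO is not given beside them. GART-201, a coding transcript of 2149 bases that is shorter than the full-length GART-203 of 3318 bases, held 21.8, 18.9 and 20.2 percent in MOLM13 with DMSO. It held 10.7, 16.4 and 12.7 percent with cytarabine, 13.6, 16.7 and 14.9 percent with daunorubicin and 16.6, 18.2 and 15.9 percent with the combination, and all 9 treated libraries lay below DMSO. In OCIAML3 it held 26.2, 27.7 and 27.6 percent with DMSO and 16.8, 20.6 and 21.8 percent with daunorubicin, which did not overlap either. In HL60 the share was 33.1, 29.9 and 33.9 percent with DMSO and 28.6, 21.6 and 28.8 percent with daunorubicin, where all lay below DMSO. It was 31.4, 18.7 and 25.0 percent with cytarabine and 34.8, 22.1 and 26.8 percent with the combination, which overlapped DMSO.

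DHODH-203, a transcript with a retained intron, held 10.1, 9.19 and 7.89 percent of the DHODH counts in MOLM13 with DMSO. The values were 14.1, 13.04 and 11.4 percent with cytarabine, 14.1, 19.4 and 12.5 percent with daunorubicin and 13.2, 20.5 and 17.4 percent with the combination, all above DMSO. In HL60 its share was 4.48, 4.47 and 5.11 percent with DMSO and 5.34, 10.8 and 10.2 percent with the combination, again without overlap. With cytarabine it was 5.30, 5.87 and 4.19 percent there and with daunorubicin 6.48, 4.98 and 4.55 percent, which both overlapped DMSO. In OCIAML3 it was 5.69, 3.71 and 6.42 percent with DMSO and 5.67, 6.21 and 8.25 percent with daunorubicin, which overlapped. A library held only 21 to 127 estimated counts of DHODH-203.

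PAICS-201, the main PAICS transcript, held 73.0, 66.8 and 82.6 percent in MOLM13 with DMSO and 83.2, 83.2 and 90.8 percent with cytarabine, without overlap. The MOLM13 libraries with daunorubicin, at 82.42, 80.09 and 86.15 percent, and with the combination, at 85.27, 85.75 and 80.51 percent, overlapped DMSO. UMPS-201, the coding UMPS transcript of 6652 bases, held 26.5, 37.1 and 35.6 percent in HL60 with DMSO, 17.2, 19.9 and 20.5 percent in MOLM13 and 17.6, 17.5 and 17.3 percent in OCIAML3. PPAT, IMPDH2 and TYMS each had a single transcript at 10% or more of the gene.

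The paralogs of IMPDH2 and CTPS1 were measured in HL60 after the same treatments. IMPDH1 stood there at 109, 122 and 122 CPM with DMSO and 76.8, 63.9 and 66.5 CPM with the combination, and fell by 0.48 ± 0.10 (FDR = 0.00158) after cytarabine and by 0.83 ± 0.10 (FDR = 1.84e-05) after the combination, with 0.15 ± 0.10 (FDR = 0.298) after daunorubicin. CTPS2 stood at 16.1, 20.0 and 14.5 CPM with DMSO and 23.0, 29.6 and 25.1 CPM with daunorubicin, and rose by 0.59 ± 0.15 (FDR = 0.0166) after daunorubicin, with 0.35 ± 0.15 (FDR = 0.0821) after cytarabine and 0.34 ± 0.15 (FDR = 0.0761) after the combination. In OCIAML3 without the 2 libraries that stood apart, IMPDH1 fell by 0.44 ± 0.09 (FDR = 0.00584) after daunorubicin and by 0.68 ± 0.10 (FDR = 0.000898) after the combination, against -0.44 and -0.42 with all libraries (FDR = 0.135 and 0.209), each by edgeR's quasi-likelihood test with Benjamini-Hochberg adjustment.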
